A study of Mus musculus with 8 samples.

Results

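The genes studied here are the neighbours of Klf2, the gene that is floxed in myeloid-specific KLF2 knockout (K2KO) mice. They were taken by position alone, as the genes of chromosome 8 that start between 52.3 and 92.3 Mb of GRCm38 (the assembly behind mm10), which is 20 Mb on either side of Klf2. Of the 411 listed genes of that stretch, 27 were left out by name because they belong to other gene groups, and 384 of the 23761 genes in the table remained. The width of the stretch had been chosen on the same comparison that is described below, because a larger share of genes differed between the genotypes there than elsewhere. All differences between the genotypes are therefore given as a description of these libraries, without a test of the neighbours as a group.

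RNA-sequencing was performed on bone marrow-derived macrophages (BMDMs), which were grown from mouse marrow in medium conditioned by L929 fibroblasts. The 4 LysM mice had the genotype LysM Cre/Cre, and the 4 K2KO mice had LysM Cre/Cre together with KLF2 flox/flox. All 8 mice were 3 months old, the study places its colonies on a C57BL/6J background, and the sample descriptions mark every library as vehicle. Cre is driven by the lysozyme M locus in both groups, so the controls share Cre but not the floxed allele, and recombination is limited to cells that use that locus. Each library is denoted by its genotype and the number that ends its column in the deposited table (LysM0, K2KO0 and so on), and that number does not identify the mouse.

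KLF2 is a zinc finger transcription factor of the Krüppel-like family that binds CACCC boxes and other GC-rich sites, and in macrophages it is known for restraining inflammatory gene expression. The genes around it are largely unrelated in function. The closer they lie to Klf2, the more they tend to be inherited with it, because crossovers between close positions of a chromosome are rare. Genes near an engineered allele therefore tend to travel with that allele through a cross. The alleles that the neighbours carry were not measured, so loss of KLF2, the floxed locus itself and alleles inherited along with it cannot be told apart in this comparison.

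Expression was given as FPKM, the number of fragments of a gene scaled to its transcript length and to the mapped fragments of the library. All listed genes together summed to between 497253 and 551608 FPKM in LysM libraries and between 448235 and 501965 FPKM in K2KO libraries, and the neighbours took between 1.598% and 1.687% of this sum. FPKM do not carry read numbers, so depth is unknown and no counting error could be given. Klf2 occupies 72319033 to 72321656 of chromosome 8 (plus strand). It was at 44.1, 52.9, 64.7 and 72.8 FPKM in LysM0 to LysM3 and 45.5, 41.6, 59.2 and 59.3 FPKM in K2KO0 to K2KO3. The groups overlapped, with means of 58.7 ± 12.7 FPKM (SD, n = 4) and 51.4 ± 9.22 FPKM (SD, n = 4). The log2 fold change of Klf2 was -0.18 with a standard error of 0.17. A value for the whole gene cannot show reads lost from single exons, so it does not check the deletion. Since Klf2 was not clearly lower, directions are stated for the libraries labelled K2KO.

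The macrophage markers Cd68, Cd14, Csf1r, Adgre1 and Spi1 were abundant in all libraries. The summed FPKM of 10 macrophage markers lay between 4193 and 4416 in the LysM libraries and between 3930 and 4069 in the libraries labelled K2KO, and Cd68 was the most abundant. The groups did not overlap in this sum, nor in Cd14, at 1028 and 829 FPKM (LysM and K2KO means). Csf1r, Adgre1, Mrc1 and Mertk had higher means in K2KO, and Cd68, Spi1, Fcgr1, Itgam and Lyz2 had lower means. Lyz2, the gene that holds Cre in both groups, was at 18.6 and 13.2 FPKM in the LysM and K2KO means, and Mertk was at 14.2 and 18.3 FPKM. By the thresholds given further on, Lyz2 was called lower, without overlap, and Mertk higher, with overlap. The other macrophage markers were not called. Of the other cell types, 7 neutrophil markers summed to between 169 and 304 FPKM over all libraries, led by S100a9, and the groups overlapped in this sum. Among them Camp, a granule peptide, was at 12.6, 14.8, 11.1 and 16.0 FPKM in LysM0 to LysM3 and at 4.04, 6.77, 4.99 and 9.78 FPKM in K2KO0 to K2KO3, lower without overlap. The neutrophil markers S100a8, Ngp, Elane and Mpo went the other way, with higher means in K2KO than in LysM. S100a9 had a slightly lower mean in K2KO. The groups overlapped in each of these other markers. The sums were at most 0.898 FPKM for T cell markers, 5.44 FPKM for B cell markers and 3.23 FPKM for fibroblast markers. They were at most 7.83 FPKM for dendritic cell, 4.59 FPKM for endothelial, 1.46 FPKM for erythroid and 0.846 FPKM for mast cell markers. The groups overlapped in each of these sums. Of single scarce markers, Kit was at 0.123 and 0.333 FPKM without overlap and Col1a1 at 0.0906 and 0.356 FPKM with overlap (LysM and K2KO means). In bulk RNA, fewer cells of a type and less RNA per cell cannot be told apart. The part of these markers in the differences below was not tested.

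Promoter sequence is shown for Klf2 and for 3 neighbours on whose values much of the description rests. Fam32a is the nearest strongly changed gene before Klf2. Mri1 lies 11.9 Mb after Klf2 and has a large decrease, and Man2b1 lies 12.8 Mb after it and has the largest called increase. The sequences are from RefSeq on GRCm38.p6 and hold the 250 bases before the RefSeq start of each gene, read 5′ to 3′ on the strand of the gene. The gene positions given elsewhere are those of GENCODE, whose starts differ, so the windows of Klf2, Fam32a and Mri1 run a short way into the GENCODE gene. Capitals mark the CACCC box, searched on both strands as CACCC or GGGTG. The windows are chr8:72318812-72319061 (plus strand) for Klf2, chr8:72219495-72219744 (plus strand) for Fam32a, chr8:84257325-84257574 (minus strand) for Mri1 and chr8:85083019-85083268 (plus strand) for Man2b1.
Klf2: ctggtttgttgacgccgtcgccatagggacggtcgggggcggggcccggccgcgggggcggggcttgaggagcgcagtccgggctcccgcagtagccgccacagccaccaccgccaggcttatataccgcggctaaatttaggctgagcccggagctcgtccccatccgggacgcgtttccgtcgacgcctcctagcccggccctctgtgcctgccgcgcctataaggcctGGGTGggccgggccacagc
Fam32a: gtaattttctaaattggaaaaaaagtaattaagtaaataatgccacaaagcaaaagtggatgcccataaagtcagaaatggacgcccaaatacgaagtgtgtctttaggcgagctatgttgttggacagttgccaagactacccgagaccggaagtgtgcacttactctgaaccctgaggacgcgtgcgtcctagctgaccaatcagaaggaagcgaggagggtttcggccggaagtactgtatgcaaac
Mri1: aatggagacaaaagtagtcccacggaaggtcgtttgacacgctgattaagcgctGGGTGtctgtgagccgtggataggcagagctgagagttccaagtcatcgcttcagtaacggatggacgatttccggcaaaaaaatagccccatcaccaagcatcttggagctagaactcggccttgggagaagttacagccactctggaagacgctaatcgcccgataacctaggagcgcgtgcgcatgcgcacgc
Man2b1: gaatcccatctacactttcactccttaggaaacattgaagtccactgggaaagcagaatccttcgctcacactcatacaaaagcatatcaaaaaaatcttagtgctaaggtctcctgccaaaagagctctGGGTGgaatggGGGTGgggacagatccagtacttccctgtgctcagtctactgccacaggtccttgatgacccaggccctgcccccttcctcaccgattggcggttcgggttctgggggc

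The Klf2 window held 1 box, starting 19 bases before the RefSeq start and thus inside the gene as GENCODE places it, and had a GC content of 71.2%. Fam32a had none in this window, at a GC content of 45.6%. Mri1 had 1 box at -196, and Man2b1 had 2 boxes, at -120 and -109. A box of 5 bases is common, and 54.5% of the 27025 genes with a promoter in the RefSeq table hold at least 1 in the same window. Of the neighbours with a mean FPKM of at least 1, 142 of 199 had a promoter entry, and 64.1% of these held a box. The share was 70.6% of 17 genes called higher, 72.7% of 22 genes called lower and 61.2% of 103 genes not called, by the thresholds given next. A match describes the letters of the window and not binding of KLF2.

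Of the 384 neighbours, 199 had a mean FPKM of at least 1 and were compared between genotypes together with all other genes of the table. The other 185 had a mean of at most 0.993 FPKM, and 34 were listed at 0 in all 8 libraries. Of the 265 protein-coding neighbours, 179 were among those compared. Differences are on the log2(FPKM + 0.1) scale from limma fitted over all 10920 genes that passed the same filter. For scarcely expressed genes, the added 0.1 brings the fold change closer to 0 than the plain ratio would be. A gene is termed called when its p-value, adjusted over all genes by the Benjamini-Hochberg method, was under 0.05 and its absolute log2 fold change was over 0.26, which are the thresholds of the study. The study does not name limma, so the genes called here need not be those of its own list. Higher and lower refer to the libraries labelled K2KO relative to LysM.

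Of the 199 neighbours, 53 were called, or 26.6%, against 18.4% of all genes. This is the comparison on which the stretch was chosen, so nothing is read from the difference between these shares. Among them, 22 were higher, against 9.84% of all genes called higher, and 31 were lower, against 8.61% of all genes called lower. The groups did not overlap in 63 of the 199 neighbours, against 23.1% of all genes, and 47 of these were also called. Elsewhere on chromosome 8, 64 of 370 genes were called, or 17.3%. The median log2 fold change was -0.06 over the neighbours and 0.01 over all genes. Most differences were modest, with a median of 0.43 among the genes called higher and -0.48 among those called lower. Only Man2b1 and Tmem38a were called with an absolute log2 fold change over 1. Genes called lower were the more abundant, with a median of 33.4 FPKM against 7.17 FPKM for those called higher.

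**Figure D1:**
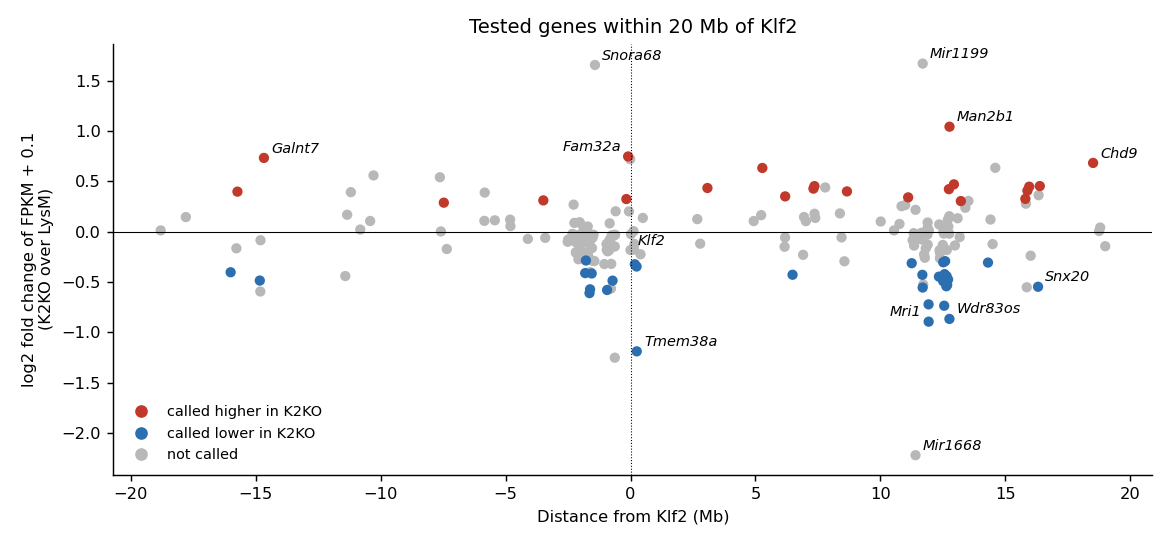
Log2 fold change of FPKM + 0.1 (y axis, K2KO over LysM) of the 199 compared neighbours against distance from Klf2 in Mb (x axis), where each point is a gene, coloured by whether it was called higher, called lower or not called. Called genes are most numerous at 12 to 13 Mb after Klf2, and the 3 small RNA genes at the vertical extremes (Mir1668, Mir1199 and Snora68) were detected in at most 2 libraries of a group and were not called.

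Near Klf2, genes were called in both directions, and most were not called. Within 0.5 Mb of Klf2, 13 other genes were compared, of which Fam32a and Tpm4 were called higher and Med26, Smim7 and Tmem38a were called lower. Over all genes, 9.84% were called higher and 8.61% lower. Fam32a, a protein of the spliceosome, lies 0.0946 Mb before Klf2. Its expression was 37.3, 41.7, 37.7 and 38.4 FPKM in LysM0 to LysM3 and 62.2, 61.0, 67.7 and 70.0 FPKM in K2KO0 to K2KO3. Every library labelled K2KO was above every LysM library, and the log2 fold change was 0.75 with a standard error of 0.07. Tmem38a, an intracellular cation channel of the endoplasmic reticulum, lies 0.250 Mb after Klf2. Its expression was 2.36, 1.92, 2.42 and 1.94 FPKM in the LysM libraries and 0.766, 0.931, 1.03 and 0.837 FPKM in the libraries labelled K2KO. The groups were far apart, and the log2 fold change of -1.19 (standard error 0.15) was the largest called decrease. Its mean FPKM was above 1 in the LysM group only, so it passed the filter through the group in which it was high.

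Smim7, a small membrane protein, is read away from Tmem38a, and 967 bases separate their starts. Smim7 was at 18.7, 19.0, 19.98 and 19.3 FPKM in the LysM libraries and at 15.3, 15.1, 15.2 and 14.8 FPKM in the libraries labelled K2KO. The groups did not overlap and replicates were very close, at a log2 fold change of -0.35 (standard error 0.05). Tpm4, a tropomyosin, differed by 0.32 on the log2 scale (standard error 0.08) and Med26, a Mediator subunit, of -0.32 (standard error 0.10). Med26 was called in only 1 of 8 fits without 1 library. The genes directly beside Klf2 were not called. Ap1m1, a subunit of a clathrin adaptor, was at 24.9 ± 1.51 and 28.7 ± 1.61 FPKM (SD, n = 4 per group), and its groups did not overlap (log2 fold change 0.20, standard error 0.07). Once adjusted for GC content and length, as described further on, Ap1m1 had a log2 fold change of 0.32 and was called. Eps15l1, an endocytic adaptor, was at 9.42 ± 0.813 and 9.27 ± 0.979 FPKM, 1700030K09Rik was at 2.30 FPKM ± 0.364 and 2.31 ± 0.328 FPKM, and Cherp was at 18.7 ± 1.56 and 16.5 ± 1.46 FPKM (SD, n = 4 per group). The predicted gene Gm10282 had a log2 fold change of 0.72 with a standard error of 0.26 at about 1 FPKM.

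**Figure D2:**
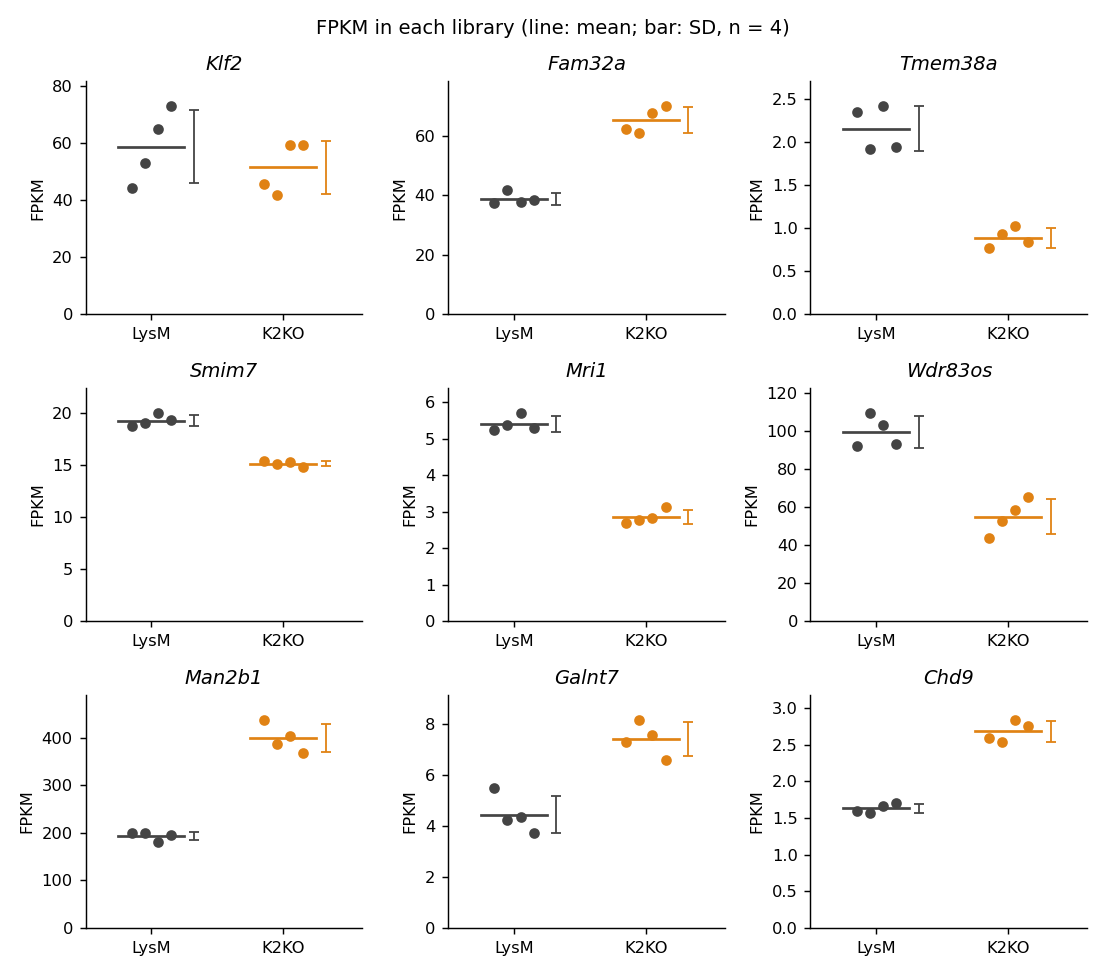
FPKM (y axis, from 0) of 9 genes in each of the 4 LysM and 4 K2KO libraries, where points are libraries, lines are means and bars are the SD (n = 4). The groups overlap for Klf2 and are apart for the other 8 genes.

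Genes were called in each stretch of 5 Mb by distance from Klf2, where 18.4% of all genes were called. Over both sides, 17.5% of 80 genes were called within 5 Mb, 28% of 25 at 5 to 10 Mb, 32% of 75 at 10 to 15 Mb and 44.4% of 18 at 15 to 20 Mb. After each library was adjusted for GC content and length, as described further on, the shares were 13.8%, 8%, 20% and 38.9% in the same order, against 10.05% of all genes, so the order of the inner stretches turned. The shares within 5 Mb lie near those over all genes. In the 5 Mb before Klf2, 10 of 67 genes were called, 3 higher and 7 lower, and in the 5 Mb after it 4 of 13 were called, 1 higher and 3 lower. Between 5 and 10 Mb before it 1 of 7 was called, and after it 6 of 18. Between 10 and 15 Mb the counts were 2 of 10 before and 22 of 65 after. Between 15 and 20 Mb they were 2 of 5 before and 6 of 13 after. The side after Klf2 thus held 38 of the 53 called genes. On that side, 5 of 6 called genes were higher at 5 to 10 Mb, 17 of 22 were lower at 10 to 15 Mb and 5 of 6 were higher at 15 to 20 Mb. The median GC content of the transcripts moved with this, at 45.2%, 53.3% and 47.2% in the same order. After the adjustment, 1 gene was higher and 1 lower at 5 to 10 Mb, where the median log2 fold change went from 0.16 to -0.02. At 10 to 15 Mb 2 were higher and 11 lower, and at 15 to 20 Mb 3 were higher and 2 lower. With the stretch narrowed to 10 Mb on either side, 21 of 106 genes were called, or 19.8%, and with 5 Mb, 14 of 81, or 17.3%.

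Values at the ends of the stretch are given as a description. Aga, the first gene inside, was at 32.1 ± 1.67 and 32.3 ± 1.17 FPKM, and Gm9892, the nearest compared gene outside, was at 13.4 ± 1.22 and 18.7 ± 2.003 FPKM. At the far end, Fto was the last compared gene inside, at 12.9 ± 0.398 and 11.7 ± 0.870 FPKM, and Lpcat2, a lysophosphatidylcholine acyltransferase, was the first outside, at 16.0 ± 0.878 and 5.81 ± 1.13 FPKM (SD, n = 4 per group, LysM first). Among the genes left out by name, Cyp4f18, at 39.8 and 0.529 FPKM, Cacna1a, at 0.490 and 7.37 FPKM, and Zfp791, at 0.377 and 3.20 FPKM, had larger log2 fold changes than any neighbour that was kept, and Hmox1 was at 674 and 742 FPKM (LysM and K2KO means). With no gene left out by name, 61 of 220 genes were called, 25 higher and 36 lower. This is 27.7%, against 18.4% of all genes, and nothing is read from it for the reason given above.

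More genes were called 12 to 13 Mb after Klf2 than in any other 1 Mb, a stretch picked out after its values were seen. It holds 27 compared genes within 84661331 to 85308278, of which 3 were called higher and 11 lower, against 9.84% and 8.61% of all genes. By share it was not the highest, with 51.9% called here, against 18.4% of all genes, and 5 of 9 genes called between 88 and 89 Mb. From Farsa to Hook2, 8 compared neighbours in a row had a negative log2 fold change, and 6 of them were called. Such runs pass over genes left out by name and genes under 1 FPKM, here Klf1 and Rtbdn among others. Longer runs of negative values with fewer calls lay before Klf2. They held 13 compared genes from Lrrc25 to Ccdc124, of which 3 were called, and 10 from Gtpbp3 to B3gnt3, of which 1 was called. The 6 are Syce2, a synaptonemal complex protein (-0.74, standard error 0.17), Gcdh, a mitochondrial enzyme of lysine breakdown (-0.42, standard error 0.07), the lysosomal nuclease Dnase2a (-0.29, standard error 0.07), Rnaseh2a, the catalytic subunit of RNase H2 (-0.54, standard error 0.07), the peroxiredoxin Prdx2 (-0.44, standard error 0.07) and the dynein adaptor Hook2 (-0.53, standard error 0.10). Junb, between Prdx2 and Hook2, had -0.18 (standard error 0.09) and was not called. Calr, the calreticulin gene just before Farsa, had a log2 fold change of 0.00 with a standard error of 0.09. Syce2 overlaps Gcdh, and Rnaseh2a and Junb overlap Prdx2 on opposite strands. The library kit keeps the strand, but whether FPKM were computed by strand is not given in the sources used here, so reads of such pairs may be shared.

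**Figure D3:**
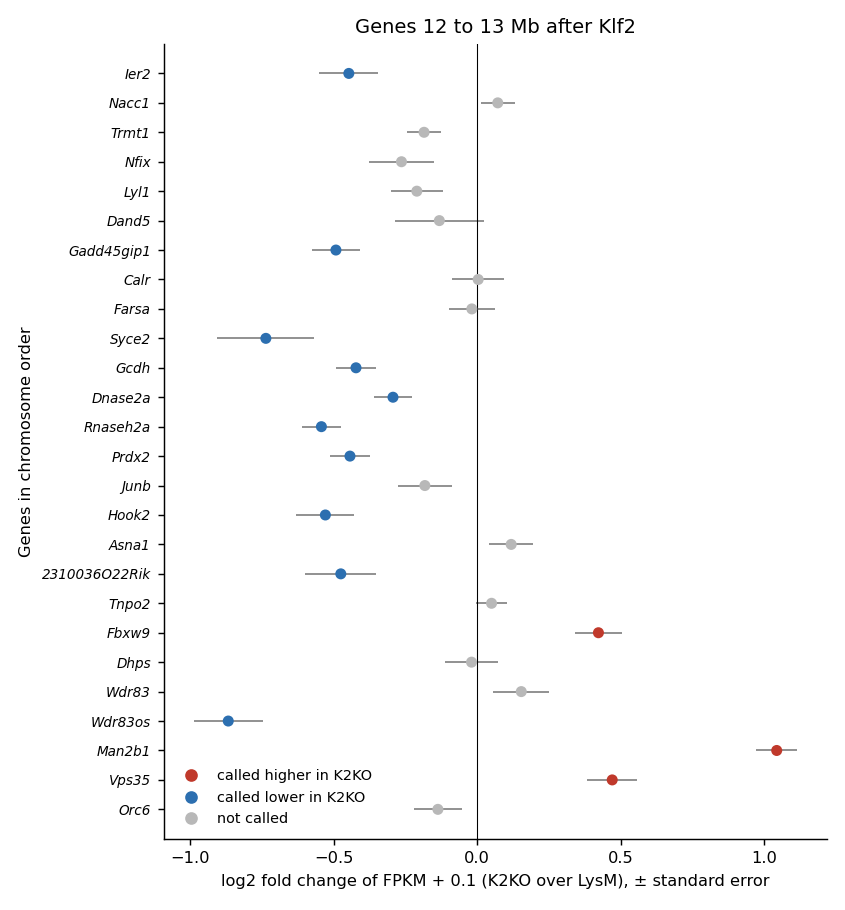
Log2 fold change of FPKM + 0.1 with its standard error (x axis) of 26 of the 27 compared genes 12 to 13 Mb after Klf2, in chromosome order from top to bottom, coloured as called higher, called lower or not called. Negative values prevail from Gadd45gip1 to Hook2, and Wdr83os and Man2b1 stand at opposite extremes beside each other.

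The gene with the largest called increase lies beside a gene with 1 of the largest decreases in the same stretch. Man2b1, the lysosomal alpha-mannosidase that trims N-glycans, lies 12.8 Mb after Klf2 at 85083270 to 85098282. Its expression was 199.97, 199, 180.2 and 195 FPKM in LysM0 to LysM3 and 438, 387, 404 and 368 FPKM in K2KO0 to K2KO3. All libraries labelled K2KO were far above all LysM libraries, and the log2 fold change was 1.04 with a standard error of 0.07, the largest called increase. Wdr83os, a chaperone component for membrane proteins at the endoplasmic reticulum, ends 930 bases before Man2b1 on the same strand. It was at 91.8, 109, 103 and 93.2 FPKM in the LysM libraries and at 43.5, 52.4, 58.2 and 65.4 FPKM in the libraries labelled K2KO, again without overlap. Its log2 fold change was -0.87 (standard error 0.12), and it overlaps Wdr83, which was not called, on the opposite strand. For 15 of the 53 called genes the compared gene at the smallest gap was called in the same direction, and for 36 it was not called. For 2 it was called in the opposite direction, namely Wdr83os for Man2b1 and Slc10a7 (0.35) for Lsm6 (-0.43). These counts were not made over all genes, so nothing is read from them.

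Another adjacent pair fell together at 11.9 Mb after Klf2. Mri1, which encodes the methylthioribose-1-phosphate isomerase of methionine salvage, lies at 84249906 to 84257326 on the minus strand. It was at 5.26, 5.38, 5.72 and 5.30 FPKM in the LysM libraries and at 2.71, 2.79, 2.84 and 3.14 FPKM in the libraries labelled K2KO. The spread within groups was small next to the gap, and the log2 fold change was -0.89 with a standard error of 0.07. D8Ertd738e, 186 bases away on the same strand, was at 320.0, 377, 400.4 and 415 FPKM in the LysM libraries and at 210.0, 191.5, 252 and 266 FPKM in the libraries labelled K2KO. The groups did not overlap, with a log2 fold change of -0.72 (standard error 0.12).

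Far from Klf2, genes were called in both directions. Hpgd, 16.0 Mb before Klf2, and Sap30, 14.8 Mb before it, were lower, at log2 fold changes of -0.40 (standard error 0.12) and -0.49 (standard error 0.13), and the groups of both overlapped. Hpgd was called in 1 and Sap30 in 2 of 8 fits without 1 library. Galnt7, which starts mucin-type O-glycans on partly glycosylated proteins, lies 14.7 Mb before Klf2. It was at 5.49, 4.23, 4.36 and 3.75 FPKM in the LysM libraries and at 7.32, 8.19, 7.59 and 6.60 FPKM in the libraries labelled K2KO, a log2 fold change of 0.73 with a standard error of 0.11. Chd9, a chromatin remodeller, lies 18.5 Mb after Klf2. It was at 1.601, 1.57, 1.66 and 1.70 FPKM in the LysM libraries and at 2.60, 2.54, 2.84 and 2.75 FPKM in the libraries labelled K2KO, a log2 fold change of 0.68 with a standard error of 0.09. Neither gene had overlapping groups. Between 88 and 89 Mb, 9 genes were compared, of which Cnep1r1, Papd5, Adcy7 and Cyld were called higher and Snx20 was called lower. Snx20, a sorting nexin of leukocytes, was at 64.7, 67.4, 66.1 and 72.7 FPKM in the LysM libraries and at 42.6, 39.1, 49.6 and 55.4 FPKM in the libraries labelled K2KO. Its groups did not overlap (log2 fold change -0.55, standard error 0.11).

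Further genes with large called differences lie elsewhere in the stretch. Tmem184c, at 4.51 ± 0.918 and 7.05 ± 1.30 FPKM (SD, n = 4 per group), differed by 0.63 on the log2 scale (standard error 0.16), with overlapping groups. Among those called higher without overlap, the log2 fold changes were 0.47 for Vps35 of the retromer, 0.45 for Cyld, a deubiquitinase that limits NF-κB signalling, 0.43 for the deubiquitinase Otud4 and 0.42 for the F-box protein Fbxw9. The processed pseudogenes Tpd52-ps, at 0.45, and Gm7984, at 0.43, may share reads with their parent genes and are uncertain. Among those called lower without overlap, the log2 fold changes were -0.61 for Lsm4 of the U6 small nuclear ribonucleoprotein, -0.58 for the orphan nuclear receptor Nr2f6 and -0.56 for 2210011C24Rik. Once adjusted for GC content and length, 2210011C24Rik had -0.28 and Tmem184c 0.52, and neither was called. Of the called genes, 25 overlap another listed gene, as do 92 of the 199 compared.

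The neighbours were also sorted into lists by the known role of their products, and the lists were made with earlier results of these data known. No list was tested. The median over all genes was 0.01, and the shares called higher and lower over all genes are those given above. Of 11 compared immune receptors, cytokines and sensors, 2 were higher, 2 lower and 7 not called (median -0.15). The 2 higher were Cyld and Adcy7, an adenylyl cyclase, at 36.2 ± 5.01 and 49.3 ± 5.52 FPKM. Of the lower ones, Ifi30, the lysosomal thiol reductase of antigen processing, was at 229.7, 227, 239 and 237 FPKM in the LysM libraries and at 159.9, 189, 175 and 176 FPKM in the libraries labelled K2KO. Its groups were clearly apart, with a log2 fold change of -0.42 (standard error 0.07). Bst2, the interferon-induced tetherin, was abundant at 1066 ± 280 and 726 ± 213 FPKM (SD, n = 4 per group), but its groups overlapped and its log2 fold change of -0.57 (standard error 0.26) was not called. Il15, Jak3, Nod2, Gdf15, Adgre5 and Il27ra were also not called, and 9 further members of the list, such as Il12rb1 and Ednra, were under 1 FPKM.

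Among 23 compared transcription and chromatin regulators, Chd9 was the only one called higher, 6 were lower and 16 were not called (median -0.21). The 6 were Sap30, Jund, Nr2f6, Med26, Samd1 and Ier2. Of the 7 called genes, Chd9 and Nr2f6 were still called after adjustment for GC content and length, and the other 5 were not. Brd7, at -0.24 and not called before the adjustment, was at -0.31 and called after it. Jund, an AP-1 subunit, was at 439, 450.3, 322 and 434 FPKM in the LysM libraries and at 247, 247, 247 and 373 FPKM in the libraries labelled K2KO. LysM2 and K2KO3 each stood apart from the rest of their group and overlapped (log2 fold change -0.57, standard error 0.16). The immediate early gene Ier2 differed by -0.45 on the log2 scale (standard error 0.10) without overlap. Junb, at 719 ± 66.9 and 633 ± 56.4 FPKM, and the corepressor Sin3b, at 103.5 ± 4.73 and 88.7 ± 8.23 FPKM (SD, n = 4 per group), were not called. Klf1, another Krüppel-like gene of the stretch, was at 0.119 and 0.123 FPKM and was not compared.

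Of 16 compared genes of the lysosome, secretory pathway and membrane traffic, 3 were higher, 3 lower and 10 not called (median -0.03). Lysosomal genes thus moved both ways, since Man2b1 was higher whereas Ifi30 and Dnase2a, at 200.4 ± 7.52 and 164 ± 10.7 FPKM, were lower. Galnt7 and Vps35 were the other higher members and Hook2 the other lower one. The SNARE gene Use1 was at 84.4 ± 6.80 and 74.4 ± 4.69 FPKM (SD, n = 4 per group) and was not called. Of 16 compared genes of RNA processing and translation, Fam32a and Papd5, a non-canonical poly(A) polymerase, were higher, Lsm4, Mri1 and the mitochondrial ribosome protein Gadd45gip1 were lower, and 11 were not called (median -0.04). Mri1 was placed in this list, although the methionine salvage enzyme described above would fit the metabolic list as well, so the counts of lower genes in both lists depend on that choice. The phenylalanyl-tRNA synthetase subunit Farsa had a log2 fold change of -0.02 with a standard error of 0.08.

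In 13 compared genes of lipid and intermediary metabolism none was higher and 4 were lower (median -0.06). The 4 were Hpgd, which inactivates prostaglandins, Pgls of the pentose phosphate pathway, Gcdh and the peroxisomal protease Lonp2. Pgls was at 181 ± 9.29 and 131 ± 25.3 FPKM, and Lonp2 at 20.9 ± 0.327 and 16.9 ± 1.22 FPKM (SD, n = 4 per group). Lpl, the lipoprotein lipase of foam cells, was at 391 ± 101 and 380.1 ± 125 FPKM, with a spread in each group that exceeded the difference. The fatty acid transporter Slc27a1 and the inositol phosphate synthase Isyna1 had log2 fold changes of -0.03 and -0.06. In 11 compared genes of DNA replication, repair and cell division none was higher and 2 were lower, with Rnaseh2a among them (median -0.12). Haus8 of the augmin complex had -0.32 (standard error 0.11) with overlapping groups, and Babam1 of a BRCA1 complex had -0.20 (standard error 0.07). Neither was called. Once adjusted for GC content and length, Haus8 had -0.47 and was called, and Babam1 had -0.03 and was not.

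Of 13 compared kinases, GTPase regulators and genes of cAMP signalling, Adcy7 was higher, none was lower and 12 were not called (median -0.06), among them Gmip at -0.08, Prkaca at -0.08 and Myo9b at -0.12 on the log2 scale. Of 5 compared genes of protein folding and oxidative stress, the co-chaperone Dnaja2 was higher, the immunophilin Fkbp8 and Prdx2 were lower, and 2 were not called (median -0.08). After adjustment for GC content and length, Fkbp8 had a log2 fold change of -0.04 and Dnaja2 of 0.18, and neither was called. Each was called in 2 of 8 fits without 1 library.

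**Figure D4:**
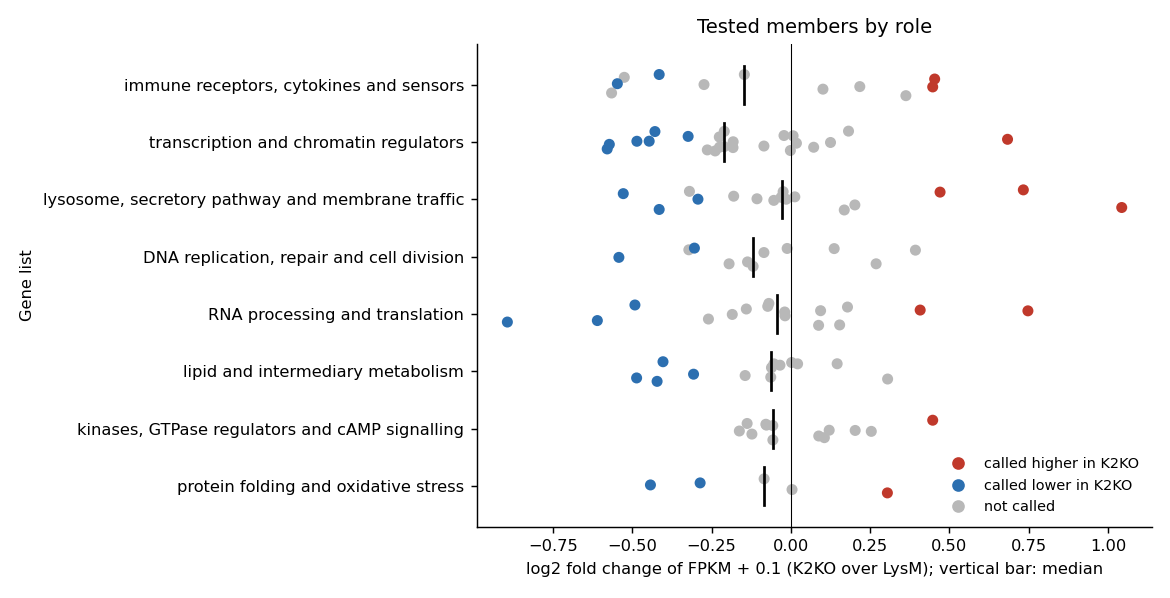
Log2 fold change of FPKM + 0.1 (x axis) of the compared neighbours in each of the 8 role lists (y axis), where points are genes coloured by call and black bars are list medians. The medians lie between -0.21 and -0.03, and each list holds genes that were not called.

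The fold changes of the neighbours moved with base composition. Genes called higher had a median transcript GC content of 45.3% and genes called lower 54.3%, against 53.7% for those not called, and their median transcript lengths were 3708 and 2071 bases. Spearman's rho between log2 fold change and GC content was -0.45 across the 199 neighbours and -0.40 across 10899 genes. Genes of the same library share its depth and composition, so this is a description without a p-value. When each library was adjusted for GC content and length by local regression, rho was -0.07 and -0.01. After the adjustment 35 neighbours were called, 11 higher and 24 lower, against 10.05% of all genes, and 30 of the 53 genes called before were among them. Fam32a, Smim7, Tmem38a, Mri1, D8Ertd738e, Wdr83os, Man2b1, Galnt7 and Chd9 were all among these 30. Cyld, Vps35, Otud4, Jund, Ier2, Med26, Sap30, Samd1, Tmem184c and 2210011C24Rik were not. Of the 14 called genes at 12 to 13 Mb after Klf2, 10 were still called after it, with Fbxw9 and Man2b1 the higher ones. The part of GC content and length in the differences was otherwise not tested.

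**Figure D5:**
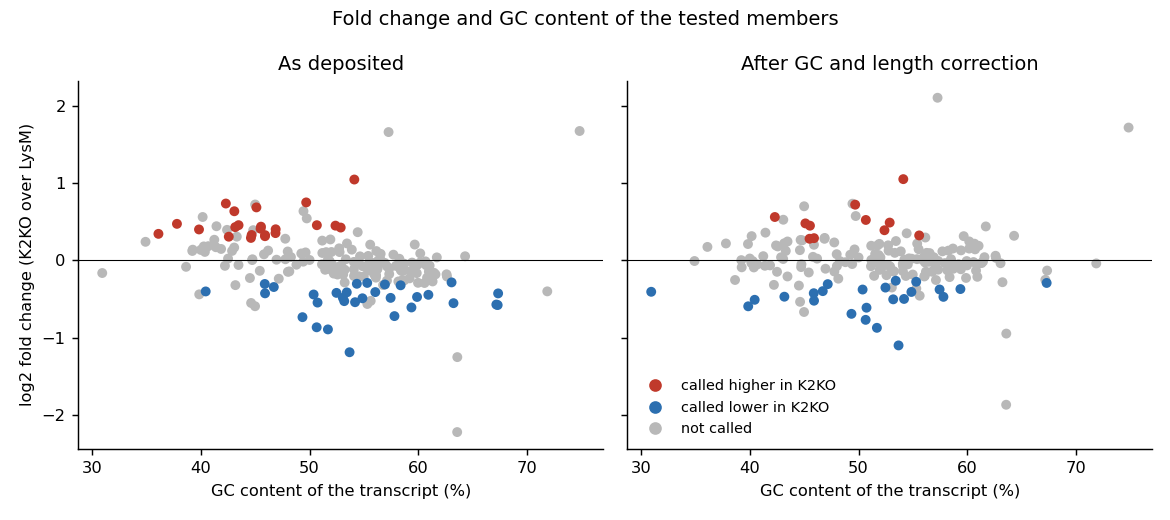
Log2 fold change (y axis) of the compared neighbours against the GC content of their transcripts in percent (x axis), for FPKM as deposited (left) and after adjustment for GC content and length (right), where points are genes coloured by call in the respective fit. The downward slope on the left (rho = -0.45) is nearly flat on the right (rho = -0.07).

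Single libraries weighed on the calls. Among the libraries labelled K2KO, K2KO3 was the nearest to LysM, with the highest value in 21 of 31 genes called lower and the lowest value in 17 of 22 called higher. Among the LysM libraries, LysM0 had the lowest value in 19 of the 31 and the highest in 13 of the 22. Without LysM3 15 neighbours were called, and the number was 25 without K2KO2, 30 without K2KO1, 31 without LysM1, 32 without K2KO0, 39 without LysM2, 56 without LysM0 and 67 without K2KO3. Of the 53 called genes, 15 were called in at most 2 of these fits, namely Hpgd, Sap30, Klhl2, Ints10, 2810428I15Rik, Fkbp8, Jund, Pgls, Med26, Tmem184c, Slc10a7, Usp38, 2310036O22Rik, Dnaja2 and Adcy7. The share of all genes called moved in parallel, from 3.09% without LysM3 to 25.98% without K2KO3. In all 8 of these fits and in 10 other settings with all libraries and the same thresholds, 13 neighbours were called. They were Galnt7, Fam32a, Smim7, Tmem38a, D8Ertd738e, Mri1, Gadd45gip1, Gcdh, Rnaseh2a, Prdx2, Wdr83os, Man2b1 and Chd9.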

How the data were processed

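The authors sequenced total RNA of BMDMs and deposited their FPKM in 1 table, where the 8 libraries have separate columns and nothing was pooled. Their methods name alignment to mm10 with TopHat2 and Cufflinks for FPKM, whereas the submitters' processing notes name STAR, Cufflinks and Cuffdiff. Versions are not given in the sources used here, and the labels and methods name different RNA kits. Of 23761 listed genes, 23645 were matched by Ensembl identifier to GENCODE release M21 for position, length and GC content, and 5 neighbours were placed by their deposited locus alone. Genes whose FPKM averaged 1 or more were fitted as log2(FPKM + 0.1) by limma 3.58.1 in R 4.3.3, with eBayes and its intensity trend, 4 against 4 libraries, without covariates. P-values were adjusted over the whole table. Nothing in the labels says that libraries were prepared apart in time or place, so no batch was fitted. The procedure was tested on simulated data with noise drawn independently for each gene and library. They held no trend with GC content or length and no effect shared by genes of a library. The test thus does not tell how calls fare where such effects exist.

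The members and lists were chosen with earlier results of these data known. The genes named are Klf2, the 3 compared neighbours on either side, the 10 called genes with the largest increase and decrease among those without overlap, up to 4 abundant genes of each list, the genes at the ends, Cyp4f18, Cacna1a, Hmox1 and markers. Others, among them Smim7, Tpm4, Med26, the genes named by position and those named as robust to settings, were chosen after their values were seen. Values of 2 genes that the rule names are not reported here. Alternatives were other pseudocounts, filters, scalings, thresholds and windows, limma without a trend, local regression on GC content and length (span 0.3), a replicate block and each library left out.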

Additional observations from a re-analysis of the deposited data

Results flagged for a closer look

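In 8 of 102 groups of 4 libraries, formed by 51 named genes in 2 genotypes, the highest or lowest library stood apart from the other 3 by more than Dixon's critical share of the whole range. Chance gives about 1 in 20, or 5.1 of 102. K2KO3 was apart in 4 of them, with 372.5 FPKM of Jund, 168.8 FPKM of Pgls, 16.1 FPKM of Nr2f6 and 145.0 FPKM of Slc27a1, each the highest of its group. LysM0 was the highest for Gm10282, at 1.317 FPKM, and the lowest for Syce2, at 5.328 FPKM. LysM2 was the lowest for Jund, at 322.1 FPKM, and K2KO2 was the lowest for Gmip, at 46.99 FPKM. The other 3 libraries labelled K2KO had 247.40, 247.39 and 247.38 FPKM of Jund.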

How the results depend on the processing

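The depth of the libraries is unknown, which limits what can be said of genes with low FPKM. The values measure the spread between 4 mice per group as labelled. Under 2 other pseudocounts, quantile and upper-quartile scaling, limma without a trend and a replicate block, 44 to 55 of 199 neighbours were called. This is 22.1% to 27.6%, against 14.05% to 19.08% of all genes. With a filter at 0.1 FPKM, 58 of 254 neighbours were called, or 22.8% against 12.7% of all genes. The number of neighbours called was 23 of 384 without a filter (8 higher, 15 lower), or 5.99% against 2.03% of all genes. It was 35 after GC and length correction (11 higher, 24 lower), or 17.6% against 10.05%, and 27 with the replicate block and that correction (10 higher, 17 lower), or 13.6% against 7.93%. It was 2 at a threshold of 1 (1 higher, 1 lower), or 1.005% against 1.007%, 21 in the 10 Mb stretch (10 higher, 11 lower) and 14 in the 5 Mb stretch (4 higher, 10 lower). The causes were not tested, apart from the fewer genes of the narrower stretches. With 1 library left out it was 15 to 67 (5 to 27 higher, 10 to 40 lower). Upper-quartile scaling gave 27 higher and 28 lower. The median was -0.013 under upper-quartile scaling, -0.0237 after the correction with or without the replicate block, 0 without a filter, -0.1005 in the 5 Mb stretch and -0.0768 to -0.0499 with 1 library left out. Whether the numbers that end the column names pair the libraries is not given in the labels. Deviations from the group means correlated at -0.0702, 0.0203, 0.0729 and -0.057 between same-numbered libraries. Such values show no strong shared effect, but cannot tell whether these libraries were handled together. The replicate block gave 53 calls, of which 47 were shared with the fit without it.

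Of 969 values of named genes under the alternatives, 784 kept direction and call, 140 lost the call, 8 gained it and 37 changed sign, the last in genes that were not called. After GC and length correction, with or without the replicate block, the log2 fold change was 0.0392 for Klf2, 0.0578 for Junb, 0.00227 for Use1, 0.0387 for Slc27a1, 0.141 for Isyna1 and 0.0198 for Prkaca. Quantile normalization gave -0.103 for 1700030K09Rik, 0.0571 for Junb, 0.0407 for Farsa, 0.128 for Lpl, 0.108 for Slc27a1 and 0.0103 for Gmip, and upper-quartile scaling gave 0.0192 for Eps15l1, 0.0255 for Farsa and 0.00957 for Slc27a1. With 1 library left out the values were -0.0862 to 0.0364 for Eps15l1, -0.105 to 0.0867 for 1700030K09Rik, -0.0889 to 0.0364 for Farsa, -0.261 to 0.1 for Lpl, -0.0832 to 0.0129 for Slc27a1, -0.144 to 0.0381 for Isyna1 and -0.0503 to 0.0627 for Calr.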

Other observations

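Genes past the ends of the stretch are described by their values. Between 20 and 25 Mb after Klf2, 32 genes were compared, of which 4 were called higher and 5 lower, where 18.4% of all genes were called. Mt1, a metallothionein, averaged 547 ± 52.0 FPKM in LysM and 268 ± 27.4 FPKM in the libraries labelled K2KO (SD, n = 4 per group), whereas Mt2 beside it was at 55.6 ± 6.74 and 50.8 ± 4.49 FPKM. Bbs2, of the ciliary BBSome, was at 1.75 ± 0.149 and 0.788 ± 0.101 FPKM and differed by -1.06 on the log2 scale (standard error 0.15). It passed the filter of 1 FPKM through the LysM group, in which it was high. Ciapin1, an iron-sulfur protein, differed by 0.81 (standard error 0.08). Between 20 and 25 Mb before Klf2, 6 genes were compared, and 2 were called higher and 1, Wwc2, lower (-0.73, standard error 0.10). All of these were named after their values had been seen. The 3 small RNA genes with the most extreme values inside the stretch lie within or over other genes. Mir1668 was listed at 47.3 FPKM in LysM0 and at 0 in the other 7 libraries, and Mir1199 at 10.2 FPKM in K2KO1 and at 0 elsewhere. Insl3, which overlaps Jak3, was at 10.2 ± 3.24 and 4.69 ± 2.42 FPKM, and was not called.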
